A study of Neurospora crassa with 16 samples.

Results

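The 8 genes described here encode histones of the filamentous fungus Neurospora crassa: the linker histone hH1, the core histones hH2A, hH2B, hH3, hH4-1 and hH4-2, and the variants hH2Az and CenH3. They were chosen by gene identity, with earlier results of these data known. Their rows in the deposited tables are NCU06863, NCU02437, NCU02435, NCU01635, NCU01634, NCU00212, NCU05347 and NCU00145, and all 8 were found among 9730 genes. Of these genes, all 8 had an adjusted p in each of the 3 comparisons, so no member was lost to the filter on low counts.

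DNA in chromatin is wound around octamers of H2A, H2B, H3 and H4, and H1 binds the linker DNA between them. H2A.Z replaces H2A in some nucleosomes, often beside gene starts, and CenH3 replaces H3 at centromeres. Polycomb repressive complex 2 (PRC2), whose catalytic subunit in this fungus is SET-7, methylates a lysine in the tail of H3, and EPR-1 is a protein with a BAH domain and a PHD finger that acts downstream of that mark. Core histone transcripts of animals mostly end in a stem-loop without a poly(A) tail, whereas in fungi such as budding yeast they are polyadenylated, so poly(A)-selected RNA can hold them.

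The series compared strains in which the gene for EPR-1 or SET-7 was deleted with wild type. RNA of the ∆epr-1 strains came from shaken cultures in Vogel's medium with sucrose, grown for 16 h at 32 °C. Replicate 1 was the mat a strain N7491 and replicate 2 the mat A strain N7479, both with epr-1 replaced by the hph marker. The wild-type and ∆set-7 libraries were published earlier in another series, so their culture details are unknown here. Their values enter only through the comparisons in the authors' deposited tables, and the series a library came from cannot be told apart from genotype wherever ∆epr-1 is compared. Nothing in the sources says that libraries of other genotypes came from independent cultures, so p-values measure only the spread between these libraries.

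The ∆epr-1 libraries held 10434667 and 10562443 reads in genes. The 8 histone genes took 0.515% of the gene reads in replicate 1 and 0.477% in replicate 2. The deleted gene, NCU07505, had 60 and 53 reads left in the 2 libraries. By the authors' deposited table its log2 fold against wild type was -2.33 in ∆epr-1 (adjusted p = 2.76e-21). By the authors' deposited table that of the set-7 gene was -1.65 in ∆set-7 (SE 0.64, adjusted p = 0.0460). Its SE was large, beside 0.24 for NCU07505 in ∆epr-1, so this check of the ∆set-7 label is weak. The mat A gene matA-1 had 0 reads in the mat a library and 62 in the mat A library.

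Transcript levels of 6 of the 8 histone genes were lower in ∆epr-1 than in wild type, where 24.5% of all tested genes were lower, and 49.9% of those whose mean normalized count reached 1000. Levels of 4 were higher in ∆set-7, where 10.3% of all tested genes and 13.5% of those above that mean were higher. The changes were small. In the authors' deposited tables, folds against wild type ran from -0.90 to -0.05 on the log2 scale in ∆epr-1 and from 0.09 to 0.38 in ∆set-7. hH1 lay at the outer end in both mutants. Set directly against ∆set-7, ∆epr-1 had lower levels of 7 of the 8, where 23.8% of all tested genes were lower, and of the 8 only hH1 differed by more than 2-fold.

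**Figure D1:**
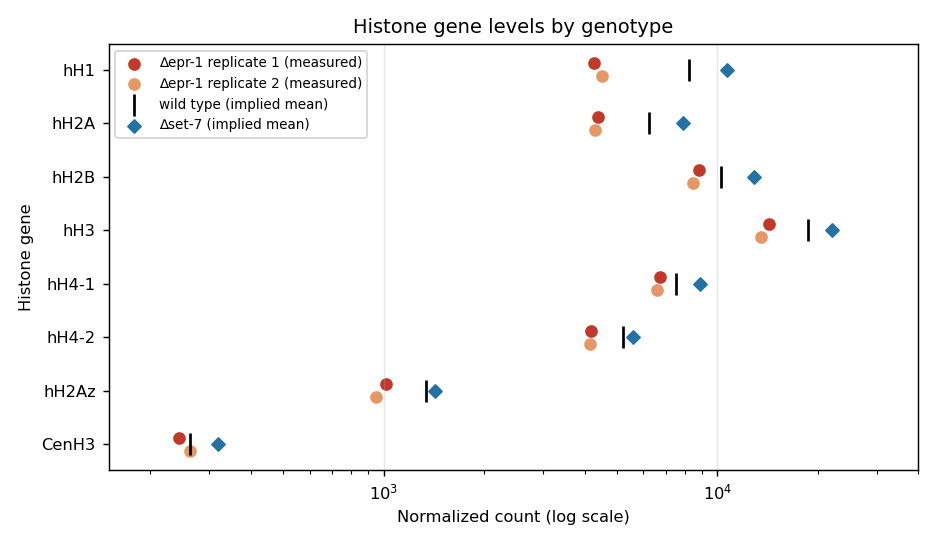
Normalized counts of each histone gene on a log axis. Circles are the 2 ∆epr-1 libraries; the black bar and the blue diamond are the wild-type and ∆set-7 means implied by the authors' deposited folds and mean, with no error. For every gene the diamond lies to the right of the bar, and both circles lie to its left except for CenH3, where replicate 2 lies at the wild-type mean of 263.

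hH1, the linker histone, had 4259.8 normalized counts in ∆epr-1 replicate 1 and 4517 in replicate 2, a mean of 4388 ± 182 (SD, n = 2). The authors' deposited table implied means of 8237 in wild type and 10699.7 in ∆set-7. Both ∆epr-1 libraries thus lay below both implied means, and the libraries differed from each other far less than from either. In the authors' deposited table hH1 fell by 0.90 on the log2 scale in ∆epr-1 (SE 0.12, adjusted p = 3.88e-12), to 0.536 of the wild-type level. It rose by 0.38 in ∆set-7 (SE 0.12, adjusted p = 0.0138), as listed in the authors' deposited table.

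H2A and H2B form a dimer in the nucleosome. The gene hH2A had 4379.9 and 4301 normalized counts in the 2 ∆epr-1 libraries (mean 4340.5 ± 55.8, SD, n = 2), against implied means of 6245 in wild type and 7899 in ∆set-7. By the authors' deposited tables it fell by 0.52 on the log2 scale in ∆epr-1 (SE 0.09, adjusted p = 9.49e-09) and rose by 0.34 in ∆set-7 (SE 0.09, adjusted p = 0.000823). hH2B had 8805 and 8474 normalized counts in the 2 libraries (mean 8639 ± 234, SD, n = 2), against implied means of 10230.5 in wild type and 12836 in ∆set-7. It fell by 0.24 on the log2 scale in ∆epr-1 (SE 0.09, adjusted p = 0.0157) and rose by 0.33 in ∆set-7 (SE 0.09, adjusted p = 0.00213), as listed in the authors' deposited tables. With replicate 1 alone, the hH2B fold in ∆epr-1 was -0.22 and no longer passed the test (adjusted p = 0.0992). Values for a single library are approximations here, made from the deposited fold and standard error rather than by a new DESeq2 fit. The 95% intervals of hH2A and hH2B overlapped in ∆epr-1. Overlap is no test of a difference, and a difference between their folds was not tested. The 2 genes lie close together on chromosome VII of the NC12 assembly, with only NCU02436 between them, which had 0 reads in replicate 1 and 1 in replicate 2.

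Histone H3, the protein that SET-7 methylates, is encoded by hH3. This gene had 14303 and 13496 normalized counts in ∆epr-1 (mean 13899.5 ± 571, SD, n = 2), with implied means of 18647 in wild type and 22064 in ∆set-7. In the authors' deposited tables it fell by 0.42 on the log2 scale in ∆epr-1 (SE 0.10, adjusted p = 9.66e-05). Its fold of 0.24 in ∆set-7 did not pass the test (SE 0.10, adjusted p = 0.0633), as listed in the authors' deposited table. The 95% interval of that fold reached from 0.05 to 0.44.

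Histone H4 is encoded by both hH4-1, which lies next to hH3 on chromosome II, and hH4-2, on chromosome III. hH4-1 had 6727 and 6613 normalized counts in ∆epr-1 (mean 6669.7 ± 80.8, SD, n = 2), against implied means of 7498 in wild type and 8835 in ∆set-7. Its fold of -0.17 in ∆epr-1 did not pass the test (SE 0.08, adjusted p = 0.0900), and it rose by 0.24 in ∆set-7 (SE 0.08, adjusted p = 0.0282), as listed in the authors' deposited tables. hH4-2 had 4176 and 4141 normalized counts (mean 4159 ± 24.7, SD, n = 2), against implied means of 5197 in wild type and 5582 in ∆set-7. The calls were the other way round for this gene, which fell by 0.32 on the log2 scale in ∆epr-1 (SE 0.09, adjusted p = 0.000920) and was not called in ∆set-7, at 0.10 (SE 0.09, adjusted p = 0.467), as listed in the authors' deposited tables. The 95% intervals of the H4 genes overlapped in both comparisons, and a difference between their folds was not tested. Reads from near-identical stretches of these genes, which encode the same kind of protein, may be split or set aside when counted, and no source used here says how the authors treated them.

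The variant genes are hH2Az and CenH3. hH2Az, the H2A.Z gene, had 1017 and 949 normalized counts in ∆epr-1 (mean 983 ± 47.8, SD, n = 2), against implied means of 1339 in wild type and 1427 in ∆set-7. It fell by 0.44 on the log2 scale in ∆epr-1 (SE 0.14, adjusted p = 0.00348), and its fold of 0.09 in ∆set-7 did not pass (SE 0.14, adjusted p = 0.723), as listed in the authors' deposited tables. CenH3, listed as hH3v in the NC12 annotation, had the fewest reads of the 8 genes, with 299 reads in the first library and 310.0 in the other, and 95% Poisson intervals of 266 to 335 and 276 to 347. These intervals cover counting error only. It had 244 and 263 normalized counts (mean 254 ± 13.3, SD, n = 2) against an implied 263 in wild type and 319.98 in ∆set-7. Neither its fold of -0.05 in ∆epr-1 (SE 0.18, adjusted p = 0.847) nor that of 0.28 in ∆set-7 (SE 0.18, adjusted p = 0.298) passed the test in the authors' deposited tables. The 95% interval of the former reached from -0.40 to 0.30, which includes the folds of hH2B, hH4-1 and hH4-2 in that comparison.

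**Figure D2:**
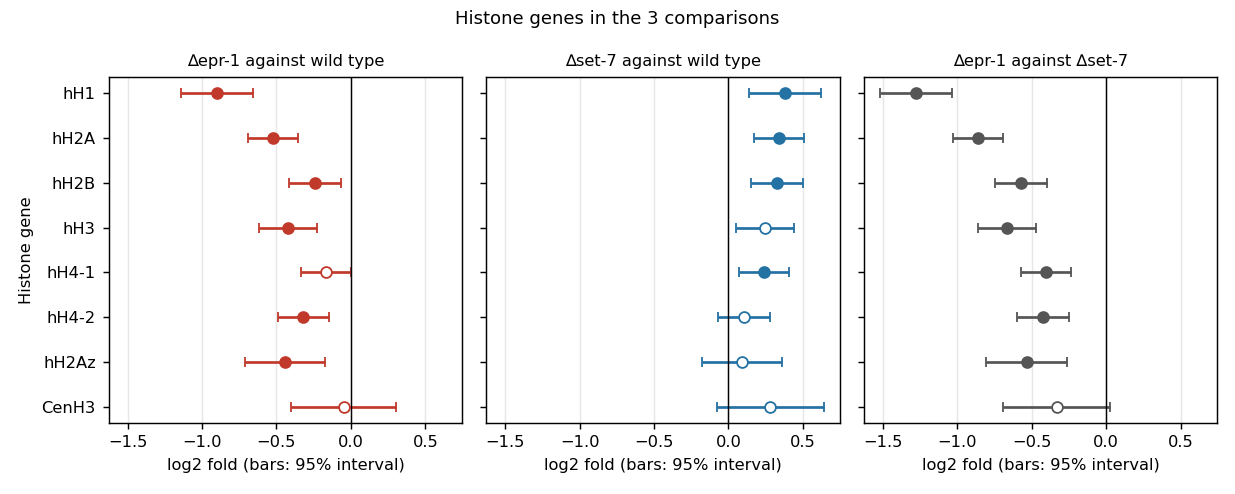
Log2 folds of the 8 histone genes with 95% intervals in the 3 deposited comparisons; filled points passed an adjusted p below 0.05. In ∆epr-1 all points lie below 0 and in ∆set-7 all lie above 0, with hH1 at -0.90 and 0.38.

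Called at an adjusted p below 0.05 by the authors' DESeq2 test, 6 histone genes were lower and 0 higher in ∆epr-1, where 24.5% of 8624 tested genes were lower and 23.3% higher. At an unadjusted p below 0.05, 7 were lower and 0 higher. In ∆set-7, 4 were higher and 0 lower, where 10.3% of 8254 tested genes were higher and 11.6% lower, and at an unadjusted p below 0.05 the counts were 5 and 0. The median log2 fold of the 8 genes was -0.37 in ∆epr-1 and 0.26 in ∆set-7, by the authors' deposited tables, beside 0.00 over all tested genes in each. Both comparisons use the same wild-type libraries, so the 2 sets of folds are not independent of each other.

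Level bears on this reading. Of the histone genes, 7 had a mean normalized count of at least 1000 over the libraries, and genes above that mean were lower in ∆epr-1 in 49.9% of 1947 cases, with a median log2 fold of -0.31. The histone genes above it had 6 of 7 lower and a median of -0.42. In ∆set-7, 13.5% of these highly read genes were higher, with a median of -0.06 over all of them, against 4 of 7 histone genes and a median of 0.24. The minimum of 1000 was chosen after the values were seen. Lower calls were thus common in ∆epr-1 among highly read genes. How many of these fell as far as the histone genes was not counted. In ∆set-7 the histone median had the opposite sign to that of the highly read genes.

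**Figure D3:**
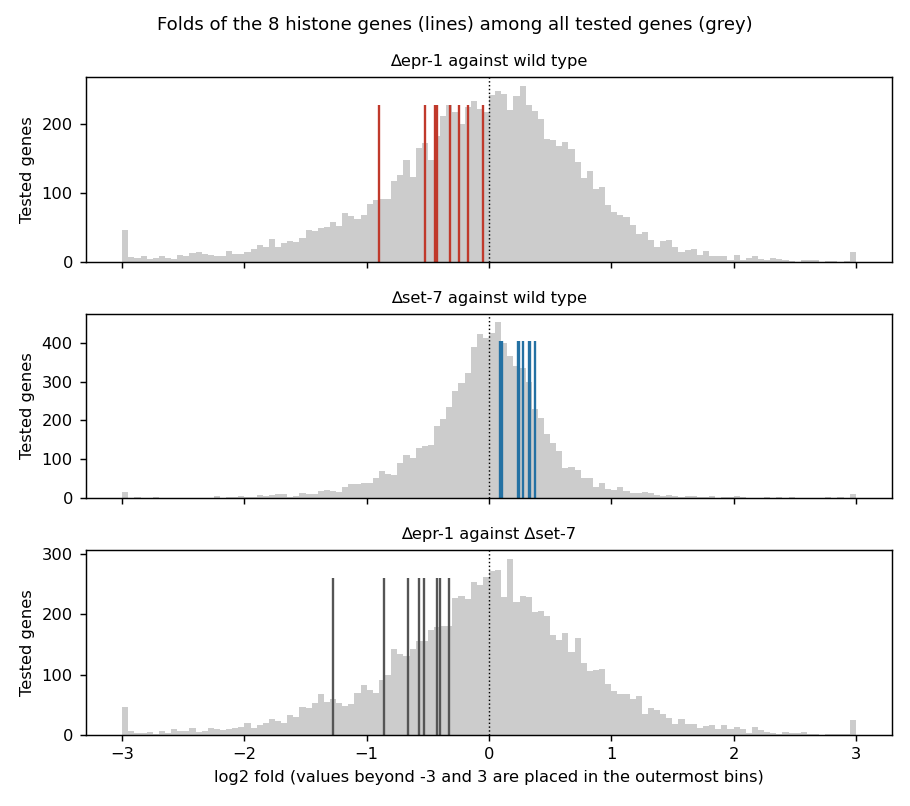
Histograms of the log2 folds of all tested genes (grey; y axis, number of genes) with the 8 histone genes as coloured lines, for the 3 comparisons. The histone genes lie within the body of each distribution, below 0 in both panels that hold ∆epr-1 and above 0 in the remaining panel.

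The direct comparison of the mutants tests the difference between them. Its deposited folds equal the differences of the folds against wild type within 1e-09, so it is no independent measurement. By the authors' deposited table, 7 histone genes stood lower in ∆epr-1 than in ∆set-7 and 0 stood higher, where 23.8% of 8809 tested genes were lower and 22.1% higher. At an unadjusted p below 0.05 the counts were also 7 and 0. Among genes with a mean of at least 1000, 45.1% were lower, with a median log2 fold of -0.22, and the 7 histone genes of that level had a median of -0.57. hH1 stood lowest at -1.28 (SE 0.12, adjusted p = 1.71e-23), or 0.413 of the ∆set-7 level, followed by hH2A at -0.86 (SE 0.09, adjusted p = 4.53e-22), as listed in the authors' deposited table. hH3 stood at -0.66, hH2B at -0.57, hH2Az at -0.53, hH4-2 at -0.42 and hH4-1 at -0.40, each called, in the authors' deposited table. CenH3 stood at -0.33 and was not called (SE 0.18, adjusted p = 0.133), with a 95% interval from -0.69 to 0.03.

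The histone genes did not all move by the same amount. In the direct comparison the 95% interval of hH1 overlapped that of none of the other 7 genes, and that of hH2A did not overlap those of hH4-1, hH4-2 and CenH3 either. In ∆epr-1 against wild type the interval of hH1, from -1.14 to -0.66, overlapped only those of hH2A and hH2Az. Neighbours in the order from hH2A through hH2Az, hH3, hH4-2, hH2B, hH4-1 to CenH3 had overlapping intervals throughout. Further apart in that order, the interval of hH2A, from -0.69 to -0.35, did not overlap that of hH4-1, from -0.33 to -0.0018. In ∆set-7 against wild type the intervals of all 8 genes overlapped. Overlapping intervals do not show equal folds, and differences between genes were not tested.

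**Figure D4:**
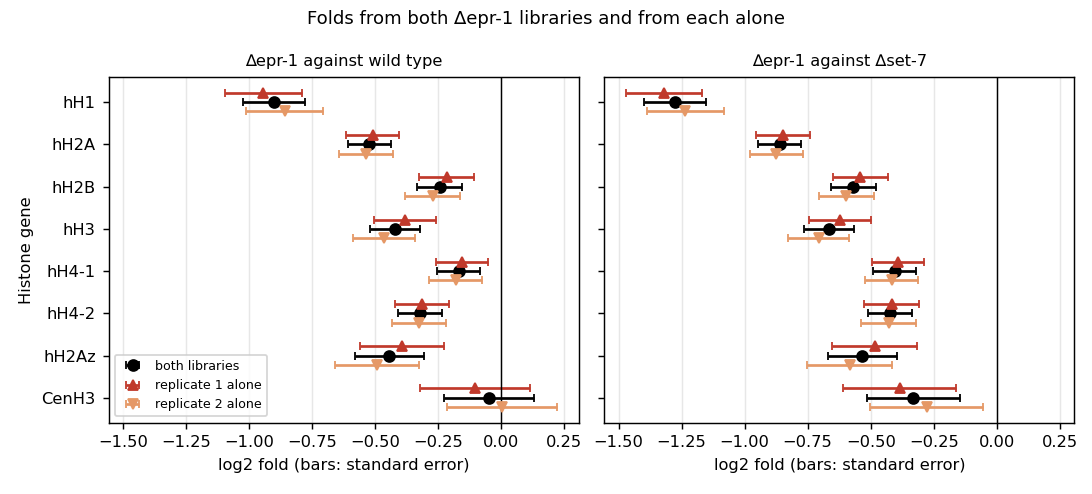
Log2 folds with standard errors from both ∆epr-1 libraries (black) and from each library alone (triangles) in the 2 comparisons that hold ∆epr-1. The 3 points of a gene lie within their standard errors, and the fold of CenH3 against wild type moves from -0.10 with replicate 1 alone to 0.00 with replicate 2 alone.

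The ∆epr-1 libraries agreed closely for these genes. The log2 ratio of replicate 2 to replicate 1 lay between -0.10 for hH2Az and 0.11 for CenH3. The SD was 0.34 for the 8030 genes whose mean normalized count reached 10. That set was not matched to the histone genes by level and reaches down to genes with far fewer reads. Each call named above for ∆epr-1 held with either library alone, apart from that of hH2B. For hH1 the fold was -0.86 with replicate 2 alone and -0.94 with replicate 1 alone, and for hH3 it was -0.46 and -0.38, in the same order, against wild type.

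Reads that fell on more than 1 gene were set aside as ambiguous in the deposited table, and their number was lower in ∆epr-1 than in both other genotypes. In the authors' deposited tables it differed by -0.87 on the log2 scale in ∆epr-1 (adjusted p = 3.14e-17) and by -0.19 in ∆set-7 (adjusted p = 0.165). For ∆epr-1 against ∆set-7 the difference was -0.68 (adjusted p = 7.53e-11). Genotype and the series a library came from cannot be told apart in the comparisons that hold ∆epr-1. In the NC12 annotation hH2A, hH2B, hH4-2 and hH2Az overlap a neighbouring gene, whereas hH1, hH3, hH4-1 and CenH3 overlap none. The part of ambiguous reads in the folds of the former was not tested.

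A further histone gene, hH4v (NCU04338), an H4 variant by its symbol and not among the 8, went the other way. It had 503 reads in replicate 1 and 488 in replicate 2. Its folds of 0.23 in ∆epr-1 (SE 0.16, adjusted p = 0.233) and -0.28 in ∆set-7 (SE 0.17, adjusted p = 0.259) did not pass the test, in the authors' deposited tables. In the direct comparison it was higher in ∆epr-1 by 0.52 (SE 0.17, adjusted p = 0.00714), as listed in the authors' deposited table, opposite in sign to all 8 histone genes described here.

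Lists of genes that act on histones held more rises than falls in ∆epr-1, where 23.3% of all tested genes rose and 24.5% fell. The lists were not matched to the histone genes by level, and folds in ∆epr-1 differed with level, as given above. Of 5 histone chaperone genes 3 rose and 0 fell, with a median log2 fold of 0.30. The 3 were the subunits of chromatin assembly factor 1, which deposits H3 and H4 behind the replication fork: cac-1 (NCU04198) at 0.57, cac-2 (NCU08357) at 0.30 and cac-3 (NCU06679), which is also a PRC2 subunit, at 0.63, in the authors' deposited table. The H3-H4 chaperone gene asf-1 (0.18, adjusted p = 0.343) and the H2A-H2B chaperone gene nap-1 (-0.17, adjusted p = 0.434) did not pass in the authors' deposited table. With replicate 2 alone only 1 of the 3 rises was called, and with replicate 1 alone 2.

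Of 12 genes for chromatin remodelling factors, enzymes that move or exchange nucleosomes with the energy of ATP, 7 rose and 2 fell in ∆epr-1, with a median of 0.46. crf8-1 rose by 1.32, crf7-1 by 1.16 and crf4-2 by 1.09, and crf5-1 fell by 1.43 and crf9-1 by 0.25 on the log2 scale, in the authors' deposited table. With either library alone 6 rose and 1 fell. Of 7 histone acetyltransferase genes 4 rose and 1 fell, with a median of 0.47. hat-6 rose by 0.88, elp3 by 0.79 and ngf-1, the counterpart of yeast GCN5, by 0.54, and hat-4 fell by 0.54 on the log2 scale, in the authors' deposited table. With replicate 1 alone 4 rose and 0 fell, and with replicate 2 alone 3 rose and 1 fell.

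Core histone synthesis in yeast and animals is tied to S phase, so genes of DNA replication and of the cell cycle were also counted. Of 5 genes for DNA replication and deoxynucleotide synthesis 3 rose and 0 fell in ∆epr-1, with a median of 0.48. They were rpa-1 at 0.66, un-24, which encodes the large subunit of ribonucleotide reductase, at 0.50, and rpa-2 at 0.48, by the authors' deposited table. The gene pcn, for the replication clamp PCNA, stood at 0.04 (adjusted p = 0.853). The remaining gene, rpa-3, lay below 0, at -0.42 (SE 0.28, adjusted p = 0.219), and was not called in the authors' deposited table. With replicate 2 alone 1 of these 3 calls was left. Of 5 genes for cell cycle and checkpoint kinases 2 rose and 0 fell, mus-59 by 0.90 and mus-9, the counterpart of ATR, by 0.85, in the authors' deposited table. With replicate 2 alone 1 of the 2 was called. The median of the 5 was 0.28, and the cyclin-dependent kinase gene cdc28 stood at 0.28 (adjusted p = 0.0951).

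**Figure D5:**
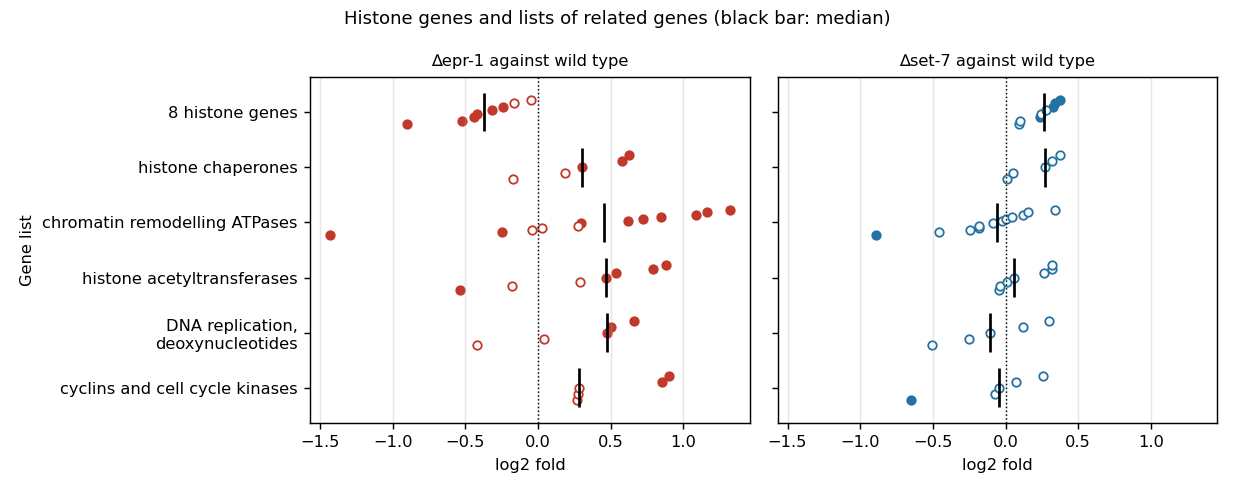
Log2 folds of the 8 histone genes and of 5 lists of related genes in ∆epr-1 (left) and ∆set-7 (right) against wild type; filled points passed an adjusted p below 0.05 and black bars are medians. In ∆epr-1 the histone median is -0.37 and the medians of the other lists lie between 0.28 and 0.48. The lists were not matched to the histone genes by level. In ∆epr-1 the median was -0.31 over genes with a mean normalized count of at least 1000 and -0.0017 over all tested genes.

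In ∆set-7 10.3% of all tested genes were higher and 11.6% lower. By the authors' DESeq2 test 0 of the 5 chaperone genes, 0 of the 7 acetyltransferase genes and 0 of the 5 replication genes passed, and at an unadjusted p below 0.05 the counts were 2, 0 and 0. Of the remodelling genes crf9-1 fell by 0.89 on the log2 scale in ∆set-7 (adjusted p = 1.93e-13) and 0 rose, and of the kinase genes mus-21, the counterpart of ATM, fell by 0.65 (adjusted p = 5.76e-05) and 0 rose, in the authors' deposited table. Medians were 0.27 for chaperones, -0.06 for remodelling factors, 0.06 for acetyltransferases, -0.11 for replication and -0.05 for kinases, beside 0.26 for the 8 histone genes.

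In the direct comparison, where 22.1% of all tested genes were higher and 23.8% lower, 9 remodelling genes were higher in ∆epr-1 and 1 lower, by the authors' deposited table. By the authors' deposited table crf8-1 stood at 1.20, crf10-1 at 1.18 and crf7-1 at 1.12, and crf5-1 at -1.19. Acetyltransferase genes had 4 higher and 1 lower, but with replicate 2 alone 0 were higher and 1 lower, and with replicate 1 alone 2 and 0. Of the chaperone genes cac-2 was higher (0.29, adjusted p = 0.0275), a call that neither library gave alone. Of the replication genes un-24 (0.75) and rpa-1 (0.54) were higher, and with replicate 2 alone 1 gene was called. Of the kinase genes 4 were higher, among them mus-21 at 0.92, mus-9 at 0.78 and mus-59 at 0.65, in the authors' deposited table, and 2 of the 4 were called with replicate 2 alone.

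The pair of folds of the 5 core histone genes had its median at -0.32 in ∆epr-1 and 0.24 in ∆set-7. Of 980 other genes that had a symbol and a mean normalized count of 100 or more, 11 lay within a Euclidean distance of 0.1 of it. The nearest were csy (NCU04801) at -0.31 and 0.25, vma-6 (NCU03395) at -0.36 and 0.28 and emp-3 (NCU00629) at -0.38 and 0.23, in the authors' deposited tables. By the authors' DESeq2 test none of them was called in ∆set-7 (adjusted p = 0.351, 0.0751 and 0.200, in that order). In ∆epr-1 vma-6 (adjusted p = 0.00803) and emp-3 (adjusted p = 0.00753) were called and csy was not (adjusted p = 0.132). The measure rests on only 2 folds that share the wild-type libraries.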

How the data were processed

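Poly(A) RNA-seq of 2 ∆epr-1 libraries (stranded kit, per the labels' protocols) was analysed; 14 ChIP-seq and DamID samples were not used here. The authors deposited signal values, normalized counts made with DESeq2 per the file headers and names; the submitters' processing notes also name Bowtie2 and deepTools, and versions and genome build are not given in the sources used here. Values divided into whole reads for 100% of rows within 0.01, and the size factors were 1.22 and 1.18. The 4 other columns of values per library match no sample analysed here and were not used. The deposited tables of 3 comparisons held log2 folds with standard errors, a Wald score, p-values and adjusted p-values, per the file headers. Signs were turned so that positive means higher in the mutant, or in ∆epr-1 where the mutants are compared. All gene tests are the authors' DESeq2 test, except in some alternatives. For the approximate values with 1 library left out and for recentred folds, p-values were recomputed from fold and standard error. These p-values, and those with no filter on low counts or a mean of at least 50, were adjusted anew by the Benjamini-Hochberg method.

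Implied means were solved from the deposited mean over all libraries and both folds against wild type, with equal library numbers per genotype. For ∆epr-1 they exceeded the measured means of the 8 genes by 0.0638% to 0.602%. Intervals of folds are 95%, as 1.96 standard errors either side. Names came from NC12 (RefSeq), which matched 9729 of 9730 genes; 4 summary rows (19.1% and 17.5% of reads) were left out. To leave out a library, the log2 ratio of the other library to the mean (pseudocount 0.5) was added to the fold and the ∆epr-1 part of the variance was doubled. All members, and per list the 3 called genes with the largest fold per direction, were named. The genes asf-1, nap-1, pcn, rpa-3 and cdc28, which were not called in ∆epr-1, are given beside them. Lists hold genes by their NC12 symbols. The members and lists were chosen with earlier results of these data known. Levels were not compared between genes, since coding lengths were not used here. Python 3.11.15, pandas 2.3.3 and SciPy 1.17.1 were used.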

Additional observations from a re-analysis of the deposited data

How the results depend on the processing

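Alternatives were an adjusted p below 0.01, a log2 fold of at least 1 in size, no filter on low counts, a mean of at least 50, folds recentred on their median, and either ∆epr-1 library left out. Of 152 alternative values of single histone genes, 131 kept their direction and side of the threshold and 20 lost their call. The fold of CenH3 in ∆epr-1, which was not called, changed sign, from -0.05 to 0.0036 without replicate 1, and was -0.10 without replicate 2; the cause was not tested. With a log2 fold of at least 1, the number of histone genes called was 0 in ∆epr-1, 0 in ∆set-7 and 1 in the direct comparison; this follows from the size of the folds. With an adjusted p below 0.01 it was 2 in ∆set-7, where hH1 and hH4-1 were lost. Leaving out 1 ∆epr-1 library gave 5 to 6 calls against wild type, where hH2B was lost, and 7 in either case in the direct comparison. Wild-type and ∆set-7 libraries were not left out in turn, since their columns match no sample analysed here and were not used. No paired analysis was possible because only the ∆epr-1 columns are matched to samples, and a count test between genotypes on the recovered reads was not run for that reason. Levels per kb and their alternatives were not run. The alternatives for the other gene lists and for hH4v were chosen after seeing the data.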

Other observations

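Of 11 tested genes next to a histone gene in the NC12 gene order, 8 had a fold of its sign in ∆epr-1. That sign was below 0 throughout, and 4 of the 8 were called. Of all 8624 tested genes, 4326 lay below 0 there and 24.5% were called lower. Among the 8 were NCU16562 with 2 and 4 reads and NCU05346 with 6 and 5. In ∆set-7, 4 of 9 such neighbours lay above 0, like the histone genes, and 2 were called. There 4155 of 8254 tested genes lay above 0 and 10.3% were called higher. NCU06862 beside hH1 (0.29 and -0.21), NCU02434, which overlaps hH2B (0.26 and -0.06), and NCU00213 beside hH4-2 (0.21 and -0.02) had signs opposite to theirs in ∆epr-1 and ∆set-7, without a call. NCU00146 beside CenH3 fell by 0.51 in ∆epr-1 (adjusted p = 0.00122) and stood at -0.28 in ∆set-7, in the authors' deposited tables. NCU01636, next to hH3, fell by 0.82 on the log2 scale in ∆epr-1 (adjusted p = 6.81e-05) and rose by 0.59 in ∆set-7 (adjusted p = 0.0108), in the authors' deposited tables. NCU11258, which overlaps hH2A, fell by 0.33 (adjusted p = 0.0293) and rose by 0.36 (adjusted p = 0.0362), and NCU02438 beyond it fell by 0.72 and rose by 0.57, in the same order. NCU05345, which overlaps hH2Az, fell by 0.48 in ∆epr-1 (adjusted p = 0.00561) and stood at 0.16 in ∆set-7 (adjusted p = 0.538).

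Close to hH4-1, with only NCU16562 between them, lies NCU01633. It had 4657 and 5455 reads in the 2 ∆epr-1 libraries. In the authors' deposited tables it fell by 4.39 on the log2 scale in ∆epr-1 (adjusted p = 4.07e-182) and rose by 1.08 in ∆set-7 (adjusted p = 3.8e-11), while NCU16562 had 2 and 4 reads and hH4-1 was not called in ∆epr-1. These neighbours were named after their values were seen.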
